A study of Mus musculus with 6 samples.

Results

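Transforming growth factor beta (TGF-beta) signalling was examined through 10 genes in B16F10 tumours. The genes encode the 3 ligands (Tgfb1, Tgfb2, Tgfb3), the type I and type II receptors (Tgfbr1, Tgfbr2), the SMAD proteins that carry or restrain the signal (Smad2, Smad3, Smad4, Smad7) and Tgfbi, a secreted matrix protein named for its induction by TGF-beta. They were chosen by symbol from the 44679 Ensembl genes in the deposited tables, and each of the 10 matched 1 gene. B16F10 is a pigmented melanoma line of the mouse, grown here as a skin tumour. Total RNA was sequenced from 3 tumours of untreated mice and 3 tumours of mice given vorinostat in vivo, an inhibitor of histone deacetylases. All 6 tumours carry the same cell line and no engineered allele is named. The sources used here do not state the dose, the schedule or the strain and age of the mice, and the labels do not say how many mice the tumours came from. A p-value here thus measures the spread between 6 samples, which may be partly technical.

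TGF-beta ligands are secreted in a latent form, held by their own propeptide and by latent TGF-beta binding proteins, and are released by integrins, proteases or thrombospondin. The free ligand binds the type II receptor, which recruits and activates the type I receptor. That receptor phosphorylates Smad2 and Smad3, which enter the nucleus with Smad4, while Smad7, itself a target of the pathway, blocks the receptor. In tumours the ligands come from cancer cells and from leukocytes, platelets and fibroblasts, and they restrain T cells and drive deposition of matrix.

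The libraries held between 11322260 and 28863715 reads assigned to genes, and nuclear protein-coding genes took between 10.3% and 46.4% of them. After scaling, the detection limit, set at 3 reads, corresponded to between 0.114 and 0.285 CPM, the reads of a gene scaled to a common library size adjusted by the TMM method. That limit covers counting error only. Untreated tumour 3 stood apart: mitochondrial ribosomal RNA took 55.9% of its reads, against 13.3% to 25.3% in the other 5, and its effective library was the smallest, at 10511599 reads. The labelled cell type was present in all 6 tumours, since the summed level of 7 melanocyte markers ran from 5735 to 7978 CPM, with none at 0 in any library. Host cells were present too, with 8 leukocyte and macrophage markers summing to 51.7 to 167 CPM and 7 fibroblast markers to 20.3 to 44.0 CPM. The titles also carry a G number whose meaning is not given. The untreated tumours carry the numbers 1, 1 and 2 and the treated ones 3, 3 and 4, so it cannot be told apart from treatment.

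No gene of the 10 differed between vorinostat and untreated tumours in edgeR's quasi-likelihood test, with adjusted p between 0.743 and 0.987. The share of all 14776 tested genes called by that test was 0.0%, so the members' count matches the background. All 10 genes passed the filter on low counts. Of the 10, 8 had a log2 fold change below 0, with a median of -0.10, where 45.9% of all genes did and their median was 0.03. None of the 10 reached an unadjusted p of 0.05, against 927 genes or 6.27% of all tested (3.36% higher and 2.92% lower with vorinostat). None had groups that did not overlap, against 12.1% of all genes. DESeq2 called 11 genes, or 0.0744%, and limma-voom called 0.0%, and neither called any of the 10.

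**Figure D1:**
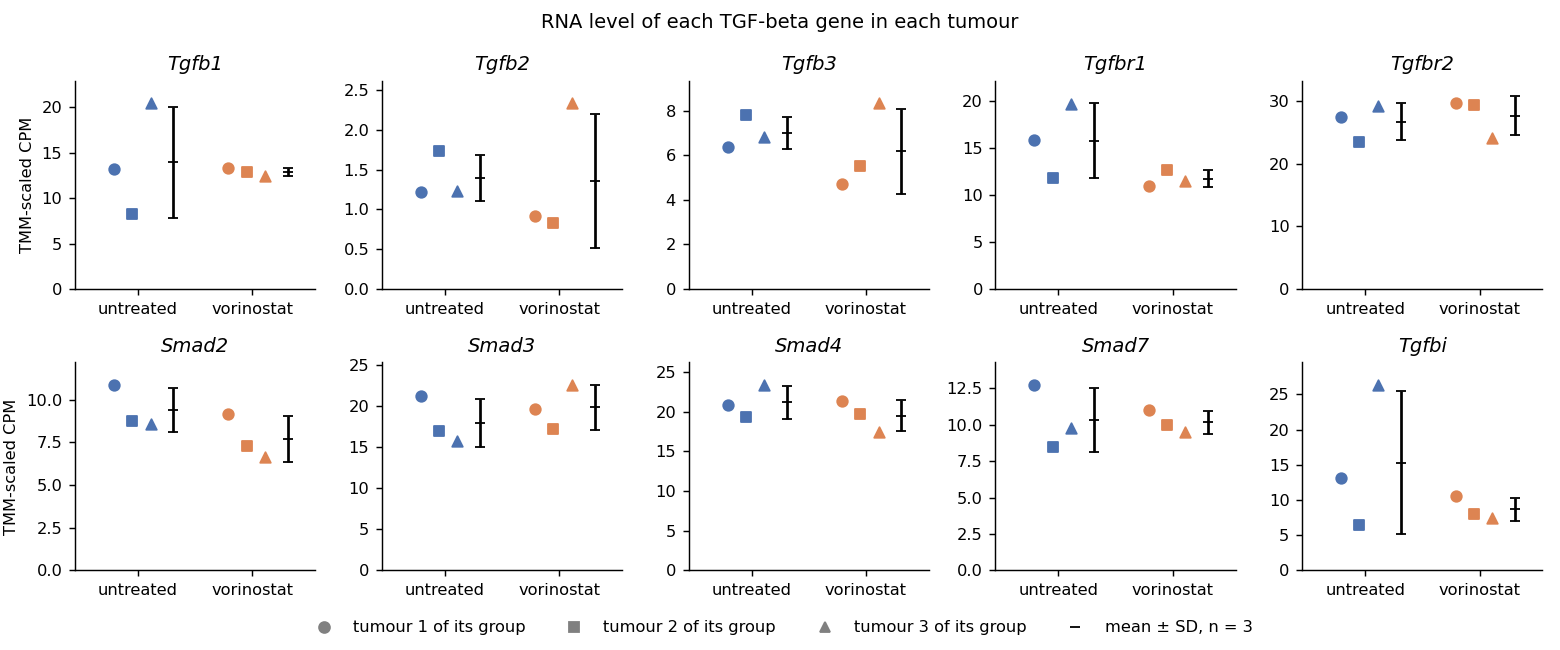
TMM-scaled CPM of each gene (vertical axes, each from 0) in 3 untreated tumours (blue) and 3 vorinostat tumours (orange); marker shapes give the tumour within its group and bars the mean ± SD. Tgfb1 and Tgfbi peak in untreated tumour 3 and are lowest in untreated tumour 2, while Tgfbr2 stays between 23.5 and 29.7 CPM.

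Among the ligands, Tgfb1 (ENSMUSG00000002603, GRCm38 chromosome 7 from 25687002 to 25705077) encodes the form most widely made by immune cells. It stood at 13.2, 8.31 and 20.5 CPM in untreated tumours 1, 2 and 3 and at 13.3, 12.9 and 12.5 CPM in vorinostat tumours 1, 2 and 3. The 3 treated tumours lay close together, and all of them lay inside the wider range of the untreated ones. The means were 12.9 ± 0.417 CPM with vorinostat and 14.0 ± 6.11 CPM without (SD, n = 3 each). The log2 fold change was -0.10 (SE 0.26, edgeR adjusted p 0.952), with a 95% interval from -0.67 to 0.47. The highest tumour was 2.46 times the lowest, a range exceeded by 5.85% of the 8108 genes with a mean of 5 CPM or more. The sign of the fold change turned without untreated tumour 3, at 0.23. It also turned, at 0.05 in limma-voom and, once the all-gene median was subtracted, at 0.23 on log2(TPM + 1) and 0.09 on log2(TPM + 0.1), where TPM is Salmon's length-scaled abundance.

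Tgfb3 (ENSMUSG00000021253, chromosome 12 from 86056745 to 86079041), a ligand with roles in palate and epithelial development, stood at 6.37, 7.81 and 6.85 CPM in untreated tumours. It stood at 4.71, 5.51 and 8.34 CPM in vorinostat tumours, so that the treated group held both the lowest and the highest tumour. The log2 fold change was -0.20 (SE 0.24, edgeR adjusted p 0.872). Tgfb3 overlaps Ttll5, a gene on the opposite strand. The library kit marks strand per the labels' protocols, but the sources used here do not say whether the quantification used it.

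Tgfb2 (ENSMUSG00000039239, chromosome 1 from 186622792 to 186705989) was the scarcest of the 10, with between 13 and 32 reads in a library. That was 1.22, 1.73 and 1.24 CPM in untreated tumours and 0.911, 0.827 and 2.33 CPM in vorinostat tumours, above the detection limit in all 6. Vorinostat tumour 3 alone held the group's high value. The 95% interval of the log2 fold change ran from -1.43 to 1.28, so a difference of 2-fold either way was not excluded. An antisense gene, Gm29491, overlaps Tgfb2.

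Per unit of transcript length, Tgfb1 made up most of the ligand RNA in every tumour. Levels of different genes were compared as TMM-scaled CPM per kilobase of effective length, within each tumour. Tgfb1 took 72.4% ± 11.1 (SD, n = 3) of the 3 ligands' level without treatment and 74.6% ± 3.86 (SD, n = 3) with vorinostat. Tgfb3 took 24.1% ± 9.74 and 19.5% ± 3.69, and Tgfb2 the small remainder of 3.51% ± 1.42 and 5.96% ± 2.16. The Tgfb2 share depends on lengths estimated from 13 to 32 reads a library. Its full lengths were 4061 to 5116 bases in untreated and 1469 to 3489 bases in treated tumours. The treated minus untreated log2 ratio of Tgfb1 to Tgfb2 was -0.72 per length and 0.17 in uncorrected CPM. The Tgfb1 share ran from 60.4% in untreated tumour 2 to 82.4% in untreated tumour 3, and the treated tumours fell between these. The ratio of Tgfb1 to Tgfb3 per length was 3.36, 1.74 and 5.30 in untreated and 4.70, 4.12 and 2.99 in treated tumours, which overlapped (exact permutation p = 0.7, two-sided, n = 3 each). With 3 against 3 the smallest p is 0.1, so none of the 6 ratios compared could pass 0.05.

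The receptors differed from each other in how they varied. Tgfbr2 (ENSMUSG00000032440, chromosome 9 from 116084293 to 116175360), the ligand-binding receptor, stood at 27.5, 23.5 and 29.2 CPM in untreated tumours and 29.7, 29.4 and 24.0 CPM in vorinostat tumours. Its highest value was 1.26 times its lowest, a range exceeded by 88.8% of the 8108 genes with a mean of 5 CPM or more. The groups overlapped almost fully. The log2 fold change was 0.06 (SE 0.15, edgeR adjusted p 0.952), and the 95% interval, in folds, ran from 0.827 to 1.31. A change of Tgfbr2 RNA larger than that lies outside the interval of these 6 samples.

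Tgfbr1 (ENSMUSG00000007613, chromosome 4 from 47353222 to 47414931), the signalling kinase of the pair, stood at 15.8, 11.8 and 19.7 CPM in untreated tumours. It stood at 10.9, 12.7 and 11.5 CPM in treated tumours, of which 2 lay below every untreated tumour and 1 lay above untreated tumour 2. The means were 11.7 ± 0.897 against 15.8 ± 3.96 CPM (SD, n = 3 each). The log2 fold change was -0.42 (SE 0.19), the smallest p of the 10 genes, and it did not pass the test (unadjusted p 0.0502, edgeR adjusted p 0.743). It kept its sign in all 17 other settings, from -0.61 without untreated tumour 2 to -0.21 without untreated tumour 3 and vorinostat tumour 3. On log2(TPM + 1) and log2(TPM + 0.1) it was -0.27 and -0.53. Nearly all of that came from subtracting the all-gene medians of 0.26 and 0.51.

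The level of Tgfbr1 relative to Tgfbr2 was lower in every treated tumour than in any untreated tumour. Per length the ratio was 0.521, 0.514 and 0.802 in untreated tumours and 0.327, 0.421 and 0.448 in treated ones. The difference of the mean log2 ratios was -0.60 (p = 0.1 in the two-sided exact permutation test, as small as 3 against 3 allows, and 0.3 after Benjamini-Hochberg adjustment over 6 ratios). With CPM not corrected for length it was -0.45, also without overlap between the groups. Of all single genes tested, 12.1% had groups that did not overlap. The share of all gene ratios that are apart in this way was not computed. A ratio within a library does not depend on how the library was scaled.

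**Figure D2:**
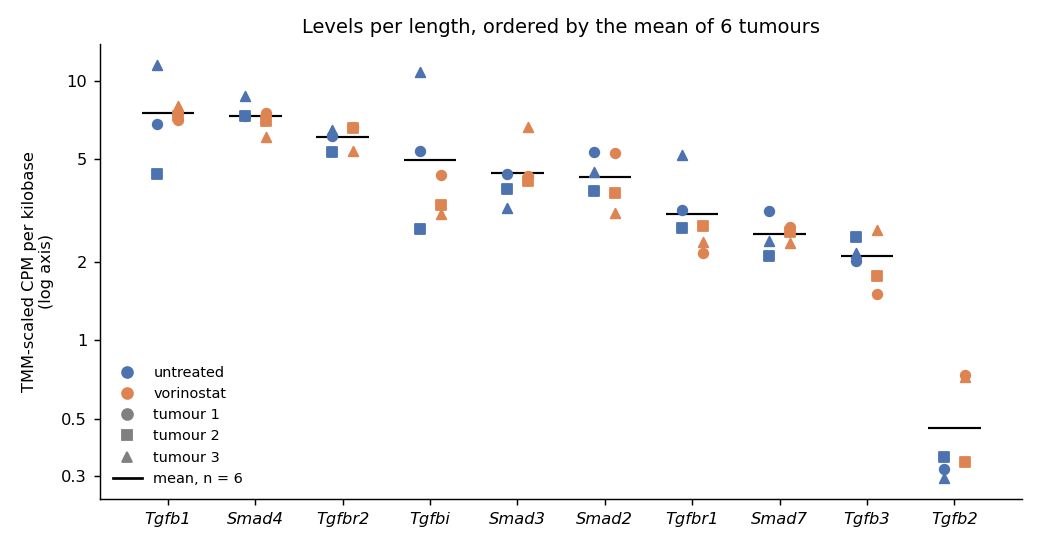
TMM-scaled CPM per kilobase of effective length (vertical log axis) for the 10 genes in 3 untreated (blue) and 3 vorinostat (orange) tumours, ordered by the mean of 6 tumours (black line). Levels run from 7.50 for Tgfb1 to 0.461 for Tgfb2, and Tgfb1, Tgfbi and Tgfbr1 each have untreated tumour 3 on top.

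Of the SMADs, Smad4 (ENSMUSG00000024515), the shared partner of the receptor-activated SMADs, stood at 20.8, 19.3 and 23.4 CPM in untreated and 21.4, 19.7 and 17.5 CPM in treated tumours. Vorinostat tumour 3 was lowest and untreated tumour 3 highest, and the other 4 lay between 19.3 and 21.4 CPM. Its log2 fold change was -0.11 (SE 0.15, edgeR adjusted p 0.889), with a 95% interval from -0.43 to 0.21. A processed pseudogene overlaps Smad4 on the other strand.

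Smad3 (ENSMUSG00000032402, chromosome 9 from 63646767 to 63757994), which binds DNA directly, stood at 21.2, 17.0 and 15.7 CPM in untreated and 19.7, 17.2 and 22.6 CPM in treated tumours. Smad2 (ENSMUSG00000024563), whose main form does not bind DNA by itself, stood at 10.9, 8.75 and 8.56 CPM and at 9.18, 7.26 and 6.64 CPM. The 2 lowest values of Smad2 were in treated tumours, while Smad3 was highest in a treated tumour, and both overlapped between the groups. Their log2 fold changes were 0.13 (SE 0.17, edgeR adjusted p 0.880) for Smad3 and -0.29 (SE 0.19, edgeR adjusted p 0.767) for Smad2. The ratio of Smad2 to Smad3 per length was 1.21, 0.975 and 1.38 in untreated and 1.23, 0.905 and 0.466 in treated tumours (exact permutation p = 0.3, two-sided, n = 3 each). With uncorrected CPM, a measure that was not planned, the groups did not overlap, at 0.512 to 0.545 against 0.294 to 0.467. The same exact permutation test gave p = 0.1 there, as small as 3 against 3 allows, and 0.3 after adjustment over the ratios compared. The groups were thus apart without the length correction and overlapped with it. How many gene ratios are apart in this way was not computed, so no difference is concluded.

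Smad7 (ENSMUSG00000025880), the inhibitor that the pathway induces, stood at 12.7, 8.48 and 9.80 CPM in untreated and 11.0, 9.97 and 9.51 CPM in treated tumours. The treated tumours lay inside the untreated range. The log2 fold change was -0.03 (SE 0.19, edgeR adjusted p 0.982), with a 95% interval from -0.44 to 0.38, and its sign turned to 0.04 with upper-quartile scaling and to 0.02 on log2(TPM + 1) with the all-gene median subtracted.

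Tgfbi (ENSMUSG00000035493, chromosome 13 from 56609523 to 56639562) varied most among the 9 genes with a mean of 5 CPM or more. It stood at 13.1, 6.47 and 26.4 CPM in untreated tumours and at 10.5, 8.04 and 7.44 CPM in treated ones. Untreated tumours 1 and 3 lay above all treated tumours, and untreated tumour 2 lay below them all. The highest value was in the library with the most mitochondrial ribosomal RNA, whose part in it was not tested. The means were 8.67 ± 1.64 against 15.3 ± 10.1 CPM (SD, n = 3 each), and the log2 fold change in edgeR was -0.78 (SE 0.39), which did not pass (adjusted p 0.743). Its highest value was 4.07 times its lowest, a range exceeded by 2.02% of the 8108 genes.

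The Tgfbi difference depended on single untreated tumours. Without untreated tumour 2 it passed the edgeR threshold, at a log2 fold change of -1.17 (adjusted p 0.0451), with 121 genes called in all. With no filter on low counts it passed too, at -0.84 (adjusted p 0.0456), with 156 genes called among 33106. Without untreated tumour 3 the log2 fold change was -0.20, and without untreated tumour 3 and vorinostat tumour 3 it was -0.07. Across the 17 other settings the adjusted p ran from 0.0451 to 1.0.

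Because Tgfb1 and Tgfbi shared their highest and lowest tumour while Tgfbr2 varied little, the sequences before their starts are shown. They are RefSeq sequences of GRCm38.p6 on each gene's strand, ending at the annotated start or earlier. They cover chr7:25686752-25687001 on the plus strand for Tgfb1, chr13:56609336-56609522 on the plus strand for Tgfbi and chr9:116175364-116175613 on the minus strand for Tgfbr2. Capitals mark matches, on either strand, to CAGAC (a SMAD half-site), GGGCGG (the GC box) or CCAAT (the CCAAT box). No 2 matches overlap.
Tgfb1: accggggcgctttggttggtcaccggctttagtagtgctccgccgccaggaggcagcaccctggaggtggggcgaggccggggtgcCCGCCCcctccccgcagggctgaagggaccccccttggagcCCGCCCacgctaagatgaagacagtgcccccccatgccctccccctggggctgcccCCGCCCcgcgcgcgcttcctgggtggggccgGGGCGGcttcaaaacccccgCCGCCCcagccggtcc
Tgfbi: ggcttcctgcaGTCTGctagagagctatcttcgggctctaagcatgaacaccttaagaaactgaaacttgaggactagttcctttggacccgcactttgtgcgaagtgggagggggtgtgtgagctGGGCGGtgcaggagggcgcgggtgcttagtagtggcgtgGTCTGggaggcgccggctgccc
Tgfbr2: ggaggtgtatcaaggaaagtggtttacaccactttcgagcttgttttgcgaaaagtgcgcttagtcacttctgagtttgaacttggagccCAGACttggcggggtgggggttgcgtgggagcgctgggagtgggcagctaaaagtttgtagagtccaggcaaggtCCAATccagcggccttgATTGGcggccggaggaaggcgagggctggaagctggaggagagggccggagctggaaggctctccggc
The Tgfb1 window held 5 GC boxes and neither other motif, with a G and C content of 75.2%. A GC box occurs in 32.7% of 32851 promoter windows of that length. The Tgfbi window, shorter at 187 bases, held 2 SMAD half-sites, starting 239 and 85 bases before the RefSeq start, and 1 GC box. For its length 34.2% of windows hold CAGAC and 22.2% hold GGGCGG. The Tgfbr2 window held 1 SMAD half-site and 2 CCAAT boxes, which occur in 42.2% and 33.8% of windows. These shares count windows with at least 1 match, and the shares with as many as 2 or 5 were not computed. Single matches of this kind are common, they describe letters only, and no binding was measured here.

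**Figure D3:**
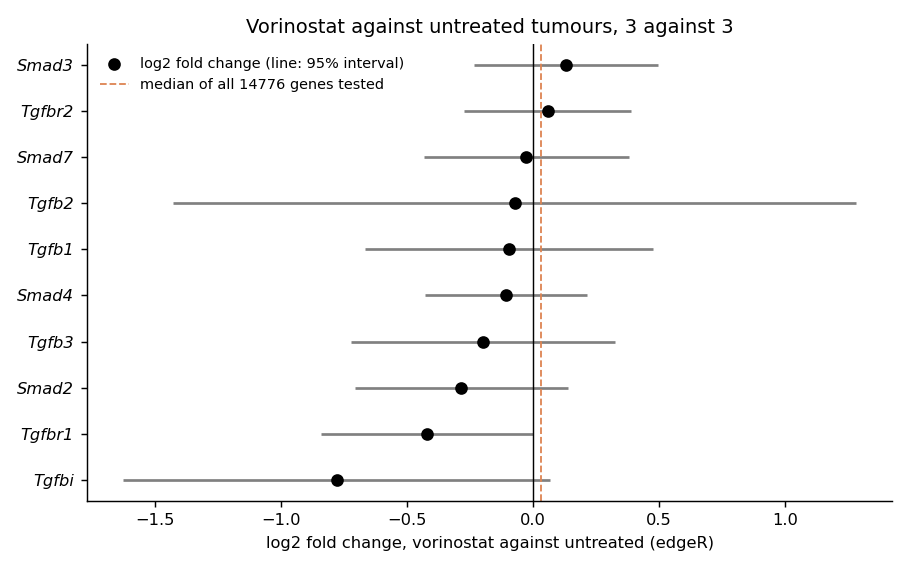
Log2 fold change of vorinostat against untreated tumours (horizontal axis, edgeR, 3 against 3) with its 95% interval for each gene; the dashed line is the median of all genes tested, 0.03. Tgfb2 has the widest interval, from -1.43 to 1.28, and the interval of every gene reaches 0.

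Ordered by their mean over the 6 tumours, the levels per kilobase were 7.50 ± 2.32 for Tgfb1, 7.32 ± 0.865 for Smad4, 6.06 ± 0.605 for Tgfbr2 and 4.93 ± 3.02 for Tgfbi (SD, n = 6). Below them came Smad3 at 4.41 ± 1.17, Smad2 at 4.26 ± 0.900, Tgfbr1 at 3.07 ± 1.09, Smad7 at 2.57 ± 0.360, Tgfb3 at 2.11 ± 0.439 and Tgfb2 at 0.461 ± 0.207. Of the 9 pairs of neighbours in this order, 2 were ordered alike in 6 of 6 tumours. Smad4 exceeded Tgfbr2 by 1.21-fold and Tgfb3 exceeded Tgfb2 by 4.84-fold (geometric means). For each of these the exact sign-flip permutation test gave p = 0.0312, the smallest that 6 tumours allow, and 0.141 after Benjamini-Hochberg adjustment over 9 pairs. The other 7 pairs had p from 0.0625 to 0.938 in the same exact permutation test. The pairs were formed by ordering the same 6 tumours that were then tested. These p-values thus cannot decide the order, and no difference or lack of one is concluded for any of the 9 pairs. Tgfb1 and Smad4, at the top, were each the higher in 3 of 6 tumours.

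Tgfb1 and Tgfbi, the 2 genes with the widest ranges among the 9 with a mean of 5 CPM or more, had the same highest and lowest tumour as the leukocyte markers. The 8 leukocyte and macrophage markers summed to 103, 51.7 and 167 CPM in untreated tumours 1, 2 and 3 and to 103, 102 and 83.4 CPM in vorinostat tumours 1, 2 and 3. All 8 were detected in every library, and Ptprc, the pan-leukocyte marker CD45, stood at 18.2, 6.69 and 28.3 CPM and at 12.2, 7.95 and 10.5 CPM. Divided by the sum, Tgfb1 ranged over 1.31-fold across the 6 tumours, from 0.123 to 0.161, where Tgfb1 CPM itself ranged over 2.46-fold. This division was chosen after the values were seen. In bulk tumours fewer cells of a type and less RNA per cell cannot be told apart, and the part of leukocyte content in these levels was not tested.

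Tgfbi divided by the same sum was 0.127, 0.125 and 0.158 in untreated and 0.102, 0.0787 and 0.0892 in treated tumours, so every treated tumour lay below every untreated one. This division too was chosen after the values were seen, and the share of all genes that it sets apart was not computed. Undivided, 12.1% of all tested genes had groups that did not overlap, and Tgfbi was not among them. The ratio of Tgfbi to Tgfb1 per length showed the same order, at 0.789, 0.616 and 0.935 against 0.614, 0.457 and 0.385 (exact permutation p = 0.1, two-sided, n = 3 each, 0.3 after adjustment over 6 ratios). The nearest tumours, untreated tumour 2 and vorinostat tumour 1, lay next to each other in that ratio. With uncorrected CPM they overlapped, at 0.778 and 0.792 (exact permutation p = 0.2). Tgfbr2 divided by the leukocyte sum ranged over 2.60-fold, more than Tgfbr2 CPM itself. The sum ranged over 3.225-fold, so a gene that varies as little as Tgfbr2 has to widen, and no conclusion is drawn from it. Tgfbr1, also highest in untreated tumour 3, ranged over 1.80-fold in CPM and 2.15-fold after the division.

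**Figure D4:**
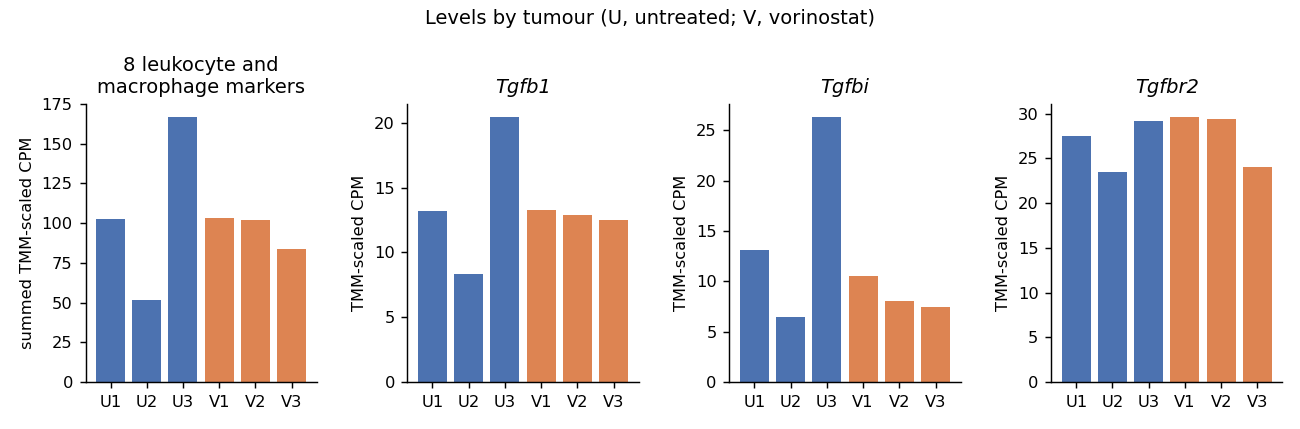
Summed TMM-scaled CPM of 8 leukocyte and macrophage markers and TMM-scaled CPM of Tgfb1, Tgfbi and Tgfbr2 (vertical axes, bars from 0) in untreated (blue, U1 to U3) and vorinostat (orange, V1 to V3) tumours. The marker sum, Tgfb1 and Tgfbi are highest in untreated tumour 3 and lowest in untreated tumour 2, while Tgfbr2 runs from 23.5 to 29.7 CPM.

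The platelet, neutrophil and endothelial marker sums also had their highest value in untreated tumour 3 and their lowest in untreated tumour 2. The single neutrophil markers shared both, but no single endothelial marker did. Pecam1 was highest in vorinostat tumour 3, at 5.74 CPM, and Cdh5 lowest in vorinostat tumour 1, at 0.317 CPM. Of the platelet markers, Pf4 and Ppbp shared both. Itga2b was lowest in untreated tumour 1, at 0.267 CPM, and Gp9 highest in vorinostat tumour 3, at 0.448 CPM. Platelet markers, of a cell that stores TGF-beta1, summed to 6.14, 5.41 and 20.7 CPM in untreated and to 7.17, 11.7 and 14.2 CPM in treated tumours. Neutrophil markers summed to 7.21, 0.781 and 18.6 CPM and to 5.07, 1.93 and 5.20 CPM, with Cxcr2 at 0 in a library. Endothelial markers summed to 3.78, 3.35 and 11.5 CPM and to 4.32, 4.50 and 11.1 CPM, with Tek at 0 in a library. The fibroblast marker sum was highest in untreated tumour 3 but lowest in vorinostat tumour 1. It was 33.3, 22.7 and 44.0 CPM in untreated and 20.3, 23.8 and 22.9 CPM in treated tumours. T cell markers summed to between 4.29 and 8.88 CPM and were highest in vorinostat tumour 3. Pericyte and smooth muscle markers summed to at most 11.6 CPM, with Acta2 and Myh11 at 0 in some libraries. Keratinocyte markers summed to at most 3.14 CPM, with Krt14, Krt10 and Krt1 at 0 in some libraries. The part of any of these cells in the levels of the 10 genes was not tested.

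The genes most like 4 of the members across the 6 tumours were found by the smallest root mean square difference between log2 CPM profiles centred on their own means, among 5523 genes with a mean of 10 CPM or more. For Tgfb1 they were Laptm5, a lysosomal protein of blood cells (difference 0.0901), and Ostf1 (0.105). For Tgfbi they were H2-Eb1, an MHC class II chain of antigen-presenting cells (0.144), and Basp1 (0.154). For Tgfbr2 they were Brox (0.0365) and Foxn2 (0.0397), and for Smad7 Zfand6 (0.0405) and Capn2 (0.0590). Laptm5 stood at 17.4, 10.4 and 27.2 CPM in untreated and 15.1, 15.2 and 14.4 CPM in treated tumours. These are the nearest of many genes over 6 points that share their library and depth, and are given as a description.

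The rest of the pathway was read in 4 lists by role, and no member of any was called by edgeR over all genes, or by DESeq2 or limma-voom. Unadjusted p was under 0.05 for 0, 0, 1 and 4 of their tested genes, in the order given here, where 6.27% of all genes were. The lists overlap: Thbs1, Ltbp2 and Mmp2 are in both the latency and the target list, and Pmepa1 and Skil in both the regulator and the target list. Of 18 genes of ligand latency and activation, all tested, 5 had a log2 fold change above 0 and 13 below, with a median of -0.09. Thbs1, a thrombospondin that activates latent TGF-beta, stood at 32.6, 16.4 and 75.8 CPM in untreated and 25.5, 16.8 and 24.5 CPM in treated tumours. Its profile also peaked in untreated tumour 3, and its log2 fold change was -0.89 (SE 0.42, edgeR adjusted p 0.743). Thbs1 was called without untreated tumour 2 and with no filter, as Tgfbi was. Lrrc32, which tethers latent TGF-beta to the surface of regulatory T cells and platelets, stood at 0.458 to 0.951 CPM in untreated and 1.03 to 3.23 CPM in treated tumours. It was the 1 gene of the list with no overlap and higher in treated tumours, where 6.53% of all genes are (log2 fold change 1.35, SE 0.70, edgeR adjusted p 0.743). Its reads numbered 10 to 13 and 26 to 36 in a library. Dcn, the proteoglycan decorin, which binds TGF-beta, had between 3 and 27 reads and a log2 difference of -1.78 (SE 0.89, adjusted p 0.743 in edgeR).

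Of 13 co-receptors and other receptors of the family, 11 were tested, with 3 above 0, 8 below and a median of -0.03. Acvr1c and Bmpr1b were too low to test. The BMP receptors Bmpr1a and Bmpr2 averaged 17.6 ± 2.08 and 55.6 ± 9.09 CPM with vorinostat, and 20.7 ± 3.96 and 65.4 ± 10.2 CPM without (SD, n = 3 each). The activin receptor Acvr1b stood at 6.13 ± 1.84 against 4.67 ± 1.53 CPM. None of the 11 had groups that did not overlap.

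Of 21 other SMADs and regulators, 20 were tested, 10 above 0 and 10 below, with a median of -0.01. Smad5, a SMAD of the BMP branch, stood at 61.3, 56.6 and 67.5 CPM in untreated and 46.3, 48.7 and 43.9 CPM in treated tumours. Its groups were apart, with vorinostat lower, as in 5.53% of all genes, and the log2 fold change was -0.42 (SE 0.15, unadjusted p 0.0161, edgeR adjusted p 0.743). Nedd4l, a ubiquitin ligase that acts on activated SMADs, also lay lower without overlap, at 31.9 ± 0.558 against 34.5 ± 2.40 CPM; it was singled out after its values were seen. Tgif2, a corepressor of SMAD targets, stood at 13.2 ± 1.18 against 10.7 ± 1.68 CPM. Foxh1, a SMAD partner in early development, had 9, 1 and 1 reads in untreated and 13, 9 and 10 in treated libraries, too few for a firm statement.

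Of 31 genes known as targets of the pathway, 28 were tested, with 9 above 0, 19 below and a median of -0.25, against 0.03 over all genes. Acta2, Tagln and Cdkn2b were too low to test. The smallest p were those of matrix genes. Col3a1, a fibrillar collagen, stood at 5.38, 1.34 and 12.8 CPM in untreated and 1.07, 1.52 and 1.17 CPM in treated tumours. Untreated tumours 1 and 3 were high, and untreated tumour 2 lay among the treated ones. Its log2 fold change was -2.34 (SE 0.63, unadjusted p 0.00337, edgeR adjusted p 0.743). The extracellular matrix protein tenascin, Tnc, stood at 2.48, 2.01 and 13.0 CPM and at 1.43, 2.21 and 1.70 CPM, with untreated tumour 3 alone high. Col1a2, another fibrillar collagen, stood at 2.75 ± 0.606 against 4.95 ± 1.73 CPM (SD, n = 3 each).

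**Figure D5:**
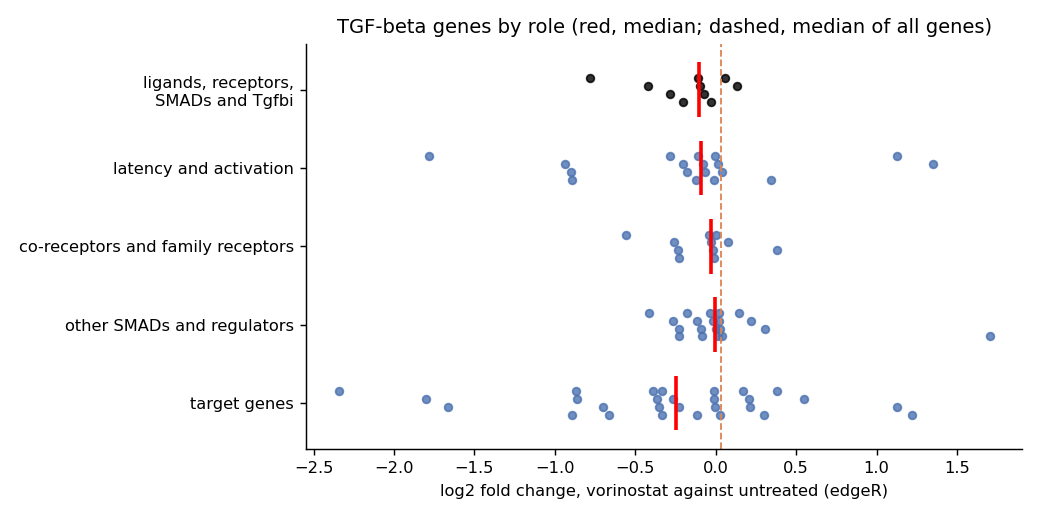
Log2 fold change of vorinostat against untreated tumours (horizontal axis, edgeR) for each tested gene of the 10 and of the 4 lists by role; red bars are list medians and the dashed line is the median of all genes. The medians run from -0.25 for target genes to -0.01 for other SMADs and regulators.

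The sum of the fibroblast markers, which share Col1a1, Col1a2 and Col3a1 with the targets, was also highest in untreated tumours 1 and 3. Of the markers that are not targets, Dcn was highest in these tumours too. Pdgfra was highest in vorinostat tumour 3, at 4.22 CPM, and Lum in untreated tumour 2, at 2.12 CPM. Pdpn was highest in untreated tumour 3, followed by vorinostat tumour 1. The part of fibroblast content in the target genes was not tested. Without untreated tumour 3 and vorinostat tumour 3 the median of the targets was -0.05. Col3a1 and Thbs1, which is in this list too, were called without untreated tumour 2, and Col3a1, Tnc and Thbs1 with no filter. Pmepa1 and Skil, feedback inhibitors induced by TGF-beta that are in both this list and that of regulators, averaged 9.07 ± 2.29 and 13.2 ± 0.908 CPM with vorinostat, and 11.0 ± 5.22 and 15.6 ± 5.10 CPM without. These 2 genes were named after their values were seen.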

How the data were processed

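RNA of 6 B16F10 tumours (3 untreated, 3 vorinostat) was sequenced. The authors deposited 1 gene table per library with estimated counts and TPM, made with Trim Galore and Salmon on GRCm38 per the submitters' processing notes and the file headers; the sources used here do not state versions or the annotation. Symbols came from the GRCm38 gene table supplied for 44118 of 44679 genes.

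Estimated counts were rounded and tested with edgeR 4.0.16 (quasi-likelihood, TMM scaling, filterByExpr by group, R 4.3.3), with Benjamini-Hochberg adjustment over 14776 genes and a threshold of 0.05. DESeq2 1.42.0, limma 3.58.1 (voom, and log2(TPM + 1) and log2(TPM + 0.1)), other scalings and filters, and leaving out each tumour were alternatives. On simulated counts for 14776 genes, of which 14011 were tested, edgeR recovered 43% of 100 genes changed 2-fold and 80% of 100 changed 4-fold, with 14 false calls. The counts were drawn independently for each gene from edgeR's own estimates of spread, with changes only in genes at 1 CPM or more. They hold no outlying tumour, so these shares may not apply to the real libraries. Effective libraries of 10511599 to 26212818 reads give a limit of 3 reads at 0.114 to 0.285 CPM.

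The members and lists were chosen with earlier results of these data known. Named were the members, the 3 tested genes of smallest p of each list, each marker list's sum and first gene where a result turns on it, and the 2 genes most like Tgfb1, Tgfbr2, Tgfbi and Smad7. Sequences were not shown for 7 members.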

Additional observations from a re-analysis of the deposited data

How the results depend on the processing

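No paired analysis was possible because the replicate numbers follow accession order, the groups share no G or S number of the titles, and they share a single N number (1, in untreated tumour 1 and vorinostat tumour 1), whose meaning is not given. Genes called over the whole table numbered 156 with no filter, 11 in DESeq2, 39 on log2(TPM + 1) and 52 on log2(TPM + 0.1), and 0 to 121 when 1 tumour was left out (121 without untreated tumour 2, 1 without untreated tumour 3). The median of all genes lay at 0.26 and 0.51 on the TPM scales, and fold changes there are relative to it. The p-values and calls on these scales were computed before the median was subtracted. Of the 39 and 52 calls, 36 and 49 were higher with vorinostat, the direction of that shift. Members called were 1 (Tgfbi) with no filter and 0 to 1 when 1 tumour was left out. The latency list had 1 call with no filter and 0 to 1 with a tumour left out, and the target list 3 and 0 to 2. Fold changes that turned sign were Tgfb1 at 0.0488 in limma-voom, 0.23 and 0.0865 on the TPM scales and 0.29 without both tumours 3, Tgfb2 at 0.36 on log2(TPM + 0.1), Tgfbr2 at -0.0048 with no filter, and Smad7 at 0.0366 with upper-quartile scaling and 0.0188 on log2(TPM + 1). Without both tumours 3, Smad3 was -0.0338 and Smad4 0.0523. With 1 tumour left out the log2 fold changes ran from -0.39 to 0.23 for Tgfb1, -0.68 to 0.16 for Tgfb2, -0.0488 to 0.14 for Tgfbr2 and -0.18 to 0.12 for Smad7. Mean log2 ratios of neighbours ran from -0.10 to 0.13 for Tgfb1 over Smad4, -0.32 to 0.25 for Tgfbi over Smad3 (-0.041 with full length) and -0.17 to 0.14 for Smad3 over Smad2. The Tgfb1 to Tgfb3 ratio difference ran from -0.13 to 0.68, and that of Tgfb1 to Tgfb2 was 0.17 in uncorrected CPM. The cause of these turns was not tested. Tgfb3, Tgfbr1, Smad2 and Tgfbi kept their sign in all 17 settings, on the TPM scales once the all-gene median was subtracted. For Tgfb3 and Smad2 the subtracted median was larger than the remaining fall on both TPM scales, so their sign there rests on the subtraction. The Tgfb2 estimates rest on only 13 to 32 reads a library.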

Other observations

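The deposited tables give an abundance-weighted transcript length per gene and library, which differed between tumours for some of the 10 genes. For Tgfb2 it was 4061, 5116 and 4427 bases in untreated and 1469, 2684 and 3489 bases in vorinostat tumours, from 13 to 32 reads a library. For Smad3 it was 5090, 4680 and 5090 bases and 4843, 4469 and 3653 bases, and for Tgfb1 2175, 2175 and 2007 bases and 2134, 2030 and 1815 bases. The treated Tgfb2 lengths all lay below the untreated ones, while the Smad3 and Tgfb1 lengths overlapped. The Tgfb2 lengths were singled out after the values were seen, and the share of all genes whose lengths were apart was not computed. These are full lengths, whereas the levels per kilobase use the effective lengths, and no test of transcript use was run. For Tgfb3 and Tgfbi the length was the same in all 6 tumours, at 3384 and 2678 bases.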
